A study of Mus musculus with 4 samples.

Results

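Type 1 conventional dendritic cells (cDC1) sorted from EO771 tumours were set against macrophages sorted from the same kind of tumour, gene by gene. EO771 is a mouse mammary carcinoma cell line that is grafted to form tumours. The comparison covered 8468 of the 13976 genes in the deposited table, namely those with at least 10 scaled CPM in the higher of the cDC1 and macrophage libraries. Scaled CPM are read counts per 1000000 on library sizes that the authors rescaled between libraries. The series held 4 libraries of bulk RNA sequencing, 1 each from CD103+ cDC1, CD11b+ cDC2, a CD103intCD11b+ dendritic population (CD103int DC) and macrophages. All were of mouse EO771 tumour. The labels state no strain, genotype, age or treatment, although the series title names locoregional hetIL-15, and they give neither the gates nor whether animals were pooled.

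With 1 library per population, cDC1 and macrophages could not be tested against each other, and neither p-values nor standard deviations appear. Brackets after a level or a fold hold the 95% interval that counting error alone gives, on reads estimated from the deposited values. Variation between animals, sorts or library preparations is not covered by these intervals. The fold of a single gene is the ratio of its scaled CPM. Differences and medians are of log2(scaled CPM + 1), cDC1 minus macrophage, so that a positive value means higher in cDC1. In bulk RNA, fewer cells of a type and less RNA per cell cannot be told apart.

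Conventional dendritic cells are antigen-presenting cells that arise from dedicated bone marrow progenitors under the growth factor receptor Flt3. The cDC1 branch depends on the transcription factors Irf8 and Batf3, takes up dead cells through receptors such as Clec9a, and presents their antigens to CD8 T cells by cross-presentation. Tumour macrophages mostly derive from blood monocytes, depend on the receptor Csf1r, and are known for phagocytosis, lysosomal breakdown, tissue remodelling and secretion of inflammatory mediators.

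At 4-fold or more, 218 genes (2.57% of those compared) were higher in cDC1 and 472 (5.57%) were lower. At 2-fold or more, 780 genes (9.21%) were higher and 1339 (15.8%) lower, which left 75.0% of genes within 2-fold. The middle 90% of differences ran between -2.09 and 1.46, and the lower tail reached further than the upper one. Protein-coding genes made up 211 of the 218 and 438 of the 472. The split depended on the scaling. The cDC1 column summed to 905670 and the macrophage column to 1169346, and bringing both to the same total multiplied the ratio of cDC1 to macrophage by 1.29, a shift of 0.37 on the log2 scale. The 4-fold counts then became 341 genes higher in cDC1 (4.01% of 8501) and 316 lower (3.72%), so that the higher genes made up 51.9% of the called genes instead of 31.6%. At 2-fold the counts with equal totals were 1471 higher (17.3%) and 885 lower (10.4%). A scaling by the median ratio of genes gave 253 genes (2.98%) higher and 420 (4.95%) lower at 4-fold, and equal protein-coding totals gave 348 (4.05%) and 319 (3.71%). The median over all compared genes was -0.09 as deposited and 0.27 with equal totals, and list medians below are read against these values. A gene below 10 in 1 library entered only through the other, so its difference could point only to that other library. This bears on the counts and medians of every list.

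**Figure D1:**
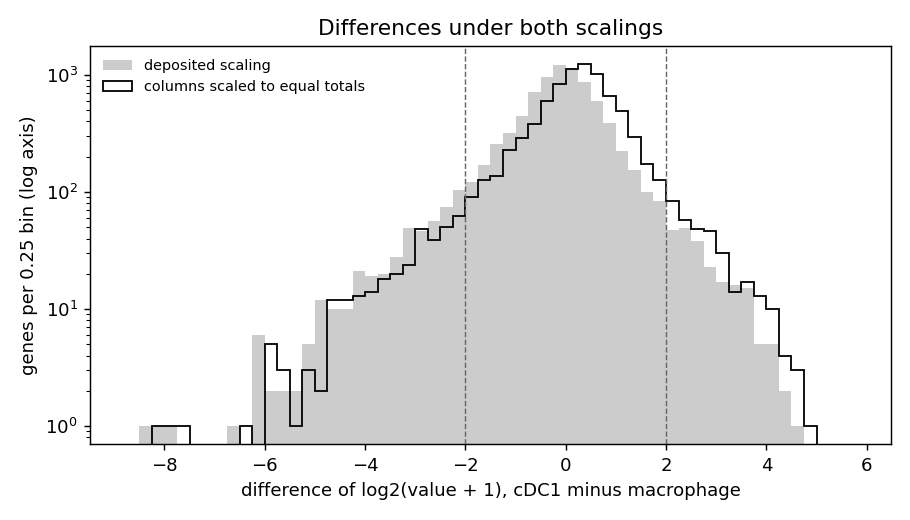
Number of genes per bin of 0.25 (log axis) by difference of log2(scaled CPM + 1), cDC1 minus macrophage, as deposited (grey) and with both columns scaled to equal totals (black line); dashed lines mark 4-fold. Equal totals move the whole distribution to the right by about 0.37, while the longer tail of genes lower in cDC1 is present under both scalings.

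Both libraries were deep, at an estimated 44425908 reads in cDC1 and 63817502 in macrophages. The minimum of 10 scaled CPM stood for 491 and 546 reads, with a counting error of 4.52% in cDC1 and 4.28% in macrophages. Genes at 10 or more numbered 7850 in cDC1 and 7732 in macrophages. Protein-coding genes held 77.0% of the cDC1 and 76.9% of the macrophage total. The small nuclear RNA gene Rn7sk stood at 1379 in cDC1 and 7239 in macrophages. The cDC1 library listed 454 genes at 0, against 19 in cDC2, 10 in CD103int DC and 20 in macrophages, and cDC2 had nearly the same estimated depth (44940500 reads). The macrophage column name carried another prefix (CCS231) than the dendritic cell columns (CS234). If that prefix marks a batch, the batch and the population cannot be told apart.

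The gene of CD103, the marker in the cDC1 label, was high in cDC1, and that of CD11b was low there. Itgae, which encodes CD103 (located on the plus strand of chromosome 11 at 73090583 to 73147446, ENSMUSG00000005947.11), was at 77 (74.5 to 79.5) scaled CPM in cDC1 and 5.5 (4.89 to 6.16) in macrophages, 14-fold higher in cDC1. Itgam, which encodes CD11b (located on the plus strand of chromosome 7 at 128062640 to 128118491, ENSMUSG00000030786.18), was at 36.7 (35 to 38.4) in cDC1 and 945 (937 to 953) in macrophages, 25.8-fold lower in cDC1. It overlaps Gm49368 on the same strand, so its reads could be split between the 2 gene models.

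Lineage markers also followed the labels. Of 19 cDC1 markers, all compared, 14 were higher in cDC1 at 2-fold or more and 1 lower (median 2.45). The chemokine receptor gene Xcr1 stood at 130.5 scaled CPM in cDC1 and 8.28 in macrophages (15.8-fold higher, interval 14.3 to 17.4). The dead-cell receptor gene Clec9a, which overlaps Clec1b, was at 60.2 in cDC1 and 5.82 in macrophages. Batf3 stood at 16.1 in cDC1 and 9.75 in macrophages, a ratio of 1.65-fold, and Irf8 at 704 in cDC1 and 268 in macrophages (2.63-fold), so that these lineage factors differed less than those surface receptors. The exception was Ifi205, also an interferon-inducible gene, at 291 in cDC1 and 603 in macrophages. Of 12 genes shared by conventional dendritic cells, 9 were higher in cDC1 and none lower (median 2.5). The growth factor receptor Flt3 was at 179 in cDC1 and 32.6 in macrophages, the kynurenine enzyme Kmo at 396 in cDC1 and 62.6 in macrophages and the inhibitory receptor Btla at 116 in cDC1 and 12.5 in macrophages. The integrin Itgax (CD11c), which many tissue macrophages also carry, was within 2-fold at 769.7 in cDC1 and 516 in macrophages.

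The macrophage library carried macrophage and monocyte genes together. Of 18 compared macrophage markers, 15 were lower in cDC1 at 2-fold or more (median -2.45), and Cd163 alone was higher in cDC1, at 18.3 in cDC1 and 2.55 in macrophages. Adgre1, which encodes F4/80, stood at 18.3 in cDC1 and 335 in macrophages (18.4-fold lower), and Csf1r at 409 in cDC1 and 1538 in macrophages (3.76-fold). The efferocytosis kinase Mertk, a defining gene of many mature macrophages, was low in both, at 15.6 in cDC1 and 17.6 in macrophages. Of 14 monocyte markers 13 were lower in cDC1 (median -4.16), with summed levels of 1526 in cDC1 and 12395 in macrophages. Among them were Ly6c2, at 233 in cDC1 and 1371 in macrophages, and Ccr2, which marks cells recently arrived from blood, at 254 in cDC1 and 978 in macrophages. How far monocytes contribute to the macrophage library was not tested.

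Plasmacytoid dendritic cell markers moved with the cDC1 library. Of 9 compared, 7 were higher in cDC1 at 2-fold or more and none lower (median 2.86), with sums of 967 in cDC1 and 345 in macrophages. Most of the 7, such as Siglech, Ccr9 and Lag3, passed the minimum through the cDC1 library alone, so the filter could admit them only on that side. The defining receptor Siglech was low in both but higher in cDC1, at 15 in cDC1 and 0.733 in macrophages. The transcription factor Tcf4 stood at 501 in cDC1 and 110.2 in macrophages (4.55-fold higher) and the chemokine receptor Ccr9 at 56.5 in cDC1 and 5.34 in macrophages. The part of plasmacytoid cells in these values was not tested. Among 10 cDC2 markers, 5 were higher and 3 lower in cDC1. The lectins Cd209a, at 257 in cDC1 and 68.9 in macrophages, and Mgl2, at 337 in cDC1 and 120.4 in macrophages, were on the higher side. The signal-regulatory receptor Sirpa, shared by cDC2 and macrophages, was on the lower side at 399.7 in cDC1 and 1212 in macrophages.

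Markers of other cell types were mostly low. No T cell marker of the 10 in the table reached 10 scaled CPM in either library, and their sum was 28.9 in cDC1 and 11.6 in macrophages. The same held for 6 fibroblast markers, which summed to 15.3 in cDC1 and 25.7 in macrophages. Neutrophil markers summed to 12 in cDC1 and 169.7 in macrophages, most of it from Csf3r at 8.87 in cDC1 and 157 in macrophages. The 7 natural killer cell markers summed to 153 in cDC1 and 89.3 in macrophages, mainly through Klrk1. Of 4 B cell markers, which summed to 158 in cDC1 and 85.1 in macrophages, only Ighm passed the minimum, at 148 in cDC1 and 73 in macrophages. Among 4 endothelial markers, summing to 472 in cDC1 and 299.5 in macrophages, Kdr stood out at 425 in cDC1 and 239 in macrophages. The epithelial list was carried by Cdh1 (E-cadherin, also made by dendritic cells), at 416 in cDC1 and 87.9 in macrophages, and no keratin of that list passed the minimum.

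**Figure D2:**
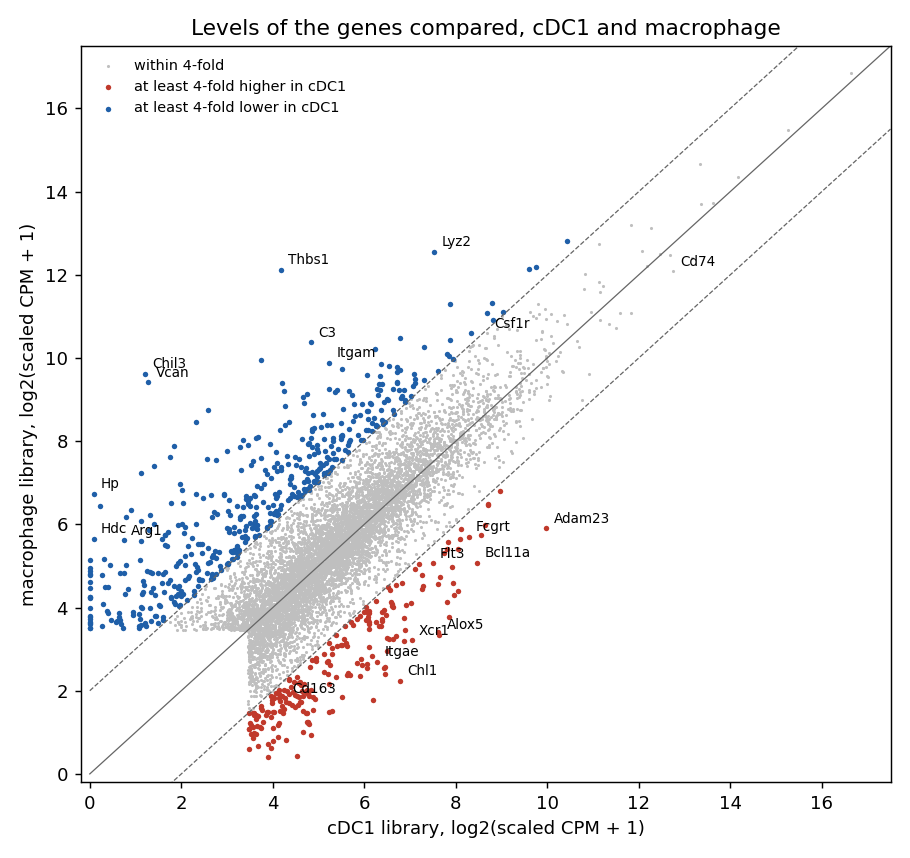
Each compared gene by its level in cDC1 (horizontal axis) and in macrophages (vertical axis), both as log2(scaled CPM + 1), with genes 4-fold or more higher in cDC1 in red and those 4-fold or more lower in blue. The 472 lower genes reach further from the diagonal than the 218 higher ones, with Chil3, Vcan and Thbs1 at the edge.

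The genes furthest on the cDC1 side coded for adhesion molecules, receptors and lipid enzymes as well as lineage genes. Chl1, a cell adhesion molecule of the L1 family known from neurons, stood at 109 (106 to 112) scaled CPM in cDC1 and 3.74 (3.24 to 4.29) in macrophages, 29.2-fold (25.4 to 33.8) higher. Wfikkn2, a secreted protease inhibitor protein that binds growth factors of the TGF-beta family, was at 72 in cDC1 and 2.42 in macrophages (29.8-fold). Ngfr, the low-affinity nerve growth factor receptor, was at 195 in cDC1 and 9.6 in macrophages (20.3-fold). Each of these genes was also low in the other dendritic populations, Chl1 at 3.15 in cDC2 and 6.32 in CD103int DC, Wfikkn2 at 3.69 in cDC2 and 5.26 in CD103int DC, and Ngfr at 8.6 in cDC2 and 13.7 in CD103int DC.

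Enzymes of lipid mediators were among them. Alox5, the 5-lipoxygenase that starts leukotriene synthesis, was at 198 in cDC1 and 9.16 in macrophages, a ratio of 21.6-fold (19.8 to 23.7). Cyp7b1, which hydroxylates oxysterols such as 25-hydroxycholesterol, was at 232 in cDC1 and 12.6 in macrophages (18.3-fold). Gpr55, a receptor for lysophosphatidylinositol, stood at 85.7 in cDC1 and 4.84 in macrophages (17.7-fold). The partners of Alox5 did not share this gap, since its activating protein Alox5ap was at 294 in cDC1 and 259 in macrophages and the leukotriene A4 hydrolase Lta4h at 83 in cDC1 and 64.3 in macrophages.

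Adam23, a member of the ADAM family without protease activity, was high in cDC1, at 1006 in cDC1 and 59 in macrophages (17-fold, interval 16.4 to 17.7). Lag3, an inhibitory receptor that binds MHC class II, was at 86.5 in cDC1 and 4.91 in macrophages (17.6-fold). The receptor tyrosine phosphatase Ptprf was at 86.7 in cDC1 and 4.25 in macrophages, and the orphan receptor Gprc5c at 248 in cDC1 and 18.8 in macrophages. Cd209e, of the DC-SIGN lectin family, was at 222 in cDC1 and 16.4 in macrophages (13.5-fold). The rest of the 20 genes with the largest difference were Prima1, Hrh1, Gcsam, Tubb2b, Sla2, Aff3, Sept3 and Lefty1, with differences between 3.65 for Lefty1 and 4.09 for Prima1, besides Xcr1 above. Hrh1, the histamine H1 receptor, stood at 27.7 in cDC1 and 0.916 in macrophages, while the histamine-forming enzyme Hdc ran the other way, at 0.0612 in cDC1 and 49.2 in macrophages.

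The genes furthest on the macrophage side were monocyte and macrophage secretory products, complement factors and lectins. Chil3, a chitinase-like secreted protein (also called Ym1), stood at 1.33 (1.02 to 1.69) scaled CPM in cDC1 and 788 (781 to 795) in macrophages, 595-fold (466 to 771) lower in cDC1. Vcan, the proteoglycan versican, was at 1.43 in cDC1 and 685 in macrophages (480.3-fold lower, interval 380.1 to 616). Thbs1, the matrix glycoprotein thrombospondin 1, was at 17 in cDC1 and 4453 in macrophages (262-fold lower, interval 245 to 281). All 3 were intermediate in the other dendritic populations, with Chil3 at 83.4 in cDC2 and 78.5 in CD103int DC, Vcan at 41.4 in cDC2 and 60.6 in CD103int DC and Thbs1 at 261 in cDC2 and 336 in CD103int DC.

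Metabolic and signalling genes followed. Acod1, which makes itaconate, stood at 1.18 in cDC1 and 149 in macrophages (126-fold lower). The angiotensin-converting enzyme gene Ace was at 4.99 in cDC1 and 433 in macrophages (86.6-fold). The transglutaminase chain F13a1 was at 2.59 in cDC1 and 237 in macrophages and the Schlafen family gene Slfn4 at 12.3 in cDC1 and 991 in macrophages. The lysozyme gene Lyz2 stood at 184 in cDC1 and 6022 in macrophages (32.8-fold lower), and its near copy Lyz1 at 1.26 in cDC1 and 22.4 in macrophages. Haptoglobin (Hp) and Hdc each had 3 estimated reads in cDC1, so their ratios are poorly bounded, with Hp at 0.0612 in cDC1 and 105 in macrophages. The remaining genes of the 20, beside those described with their groups below, were the formyl peptide receptor Fpr2 at 0.877 in cDC1 and 80.2 in macrophages, Arhgef37 at 0.163 in cDC1 and 85.3 in macrophages and Adgre4 at 2.36 in cDC1 and 195 in macrophages.

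**Figure D3:**
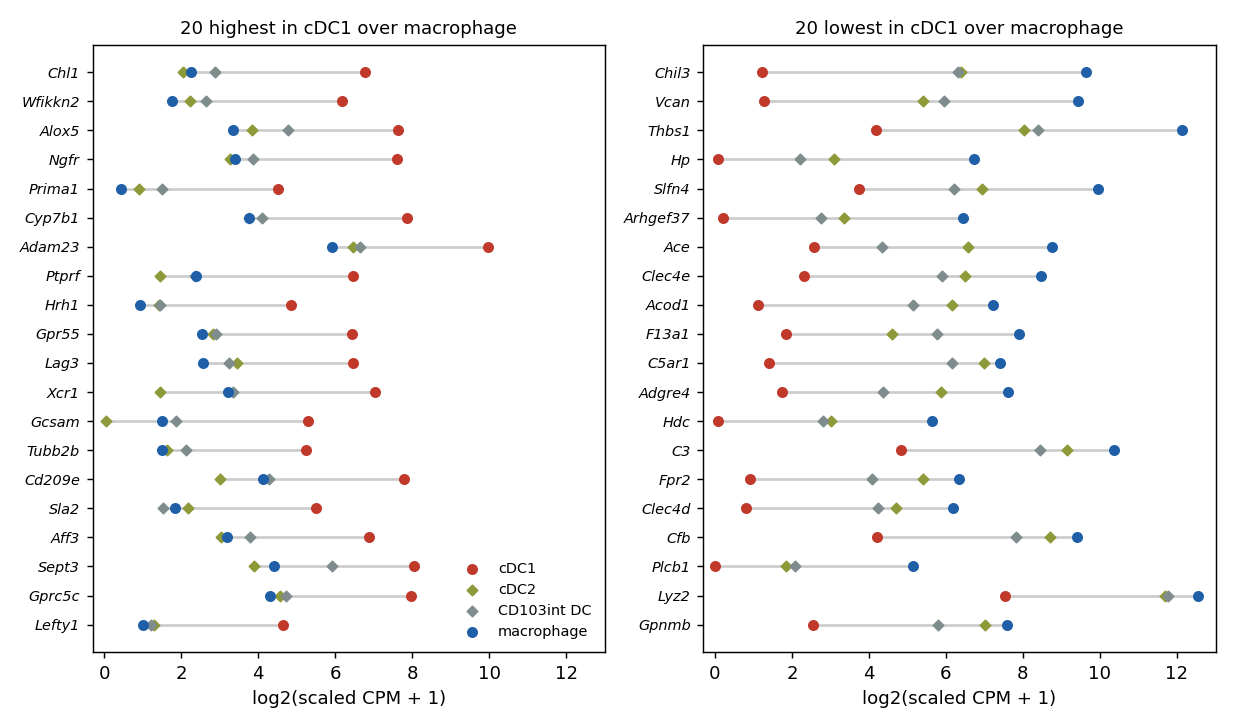
The 20 protein-coding genes with the largest difference on each side, as log2(scaled CPM + 1) in cDC1 (red), cDC2 (olive diamonds), CD103int DC (grey diamonds) and macrophages (blue). On the cDC1 side the other dendritic populations lie nearer to the macrophage than to the cDC1 value for each of the 20 genes, and on the macrophage side they lie between cDC1 and macrophages.

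The other dendritic libraries give these genes a wider frame. Over the 218 genes 4-fold or more higher in cDC1, the median level was 35.7 scaled CPM in cDC1, 5.44 in cDC2, 8.35 in CD103int DC and 4.13 in macrophages. Over the 472 lower genes it was 11.1 in cDC1, 57.4 in cDC2, 46.1 in CD103int DC and 97.3 in macrophages. The sets were chosen on the cDC1 and macrophage values, which fixes the order of the cDC1 and macrophage medians.

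Genes listed at 0 were unevenly spread, and cDC1 stood apart from all 3 other libraries in their number. Among the genes at 0 in cDC1, 19 reached 10 scaled CPM or more in macrophages, 15 of them protein coding, and no gene at 0 in macrophages did so in cDC1. Plcb1, a phospholipase C, was listed at 0 in cDC1 and was at 34.2 in macrophages. Others were Retnla, an alternative activation product, at 29.9 in macrophages, the formyl peptide receptor Fpr1 at 18.0, the transcription regulator Id3 at 18.1 and the lysosomal protease Ctsk at 14.8. No ratio is given for genes listed at 0.

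**Figure D4:**
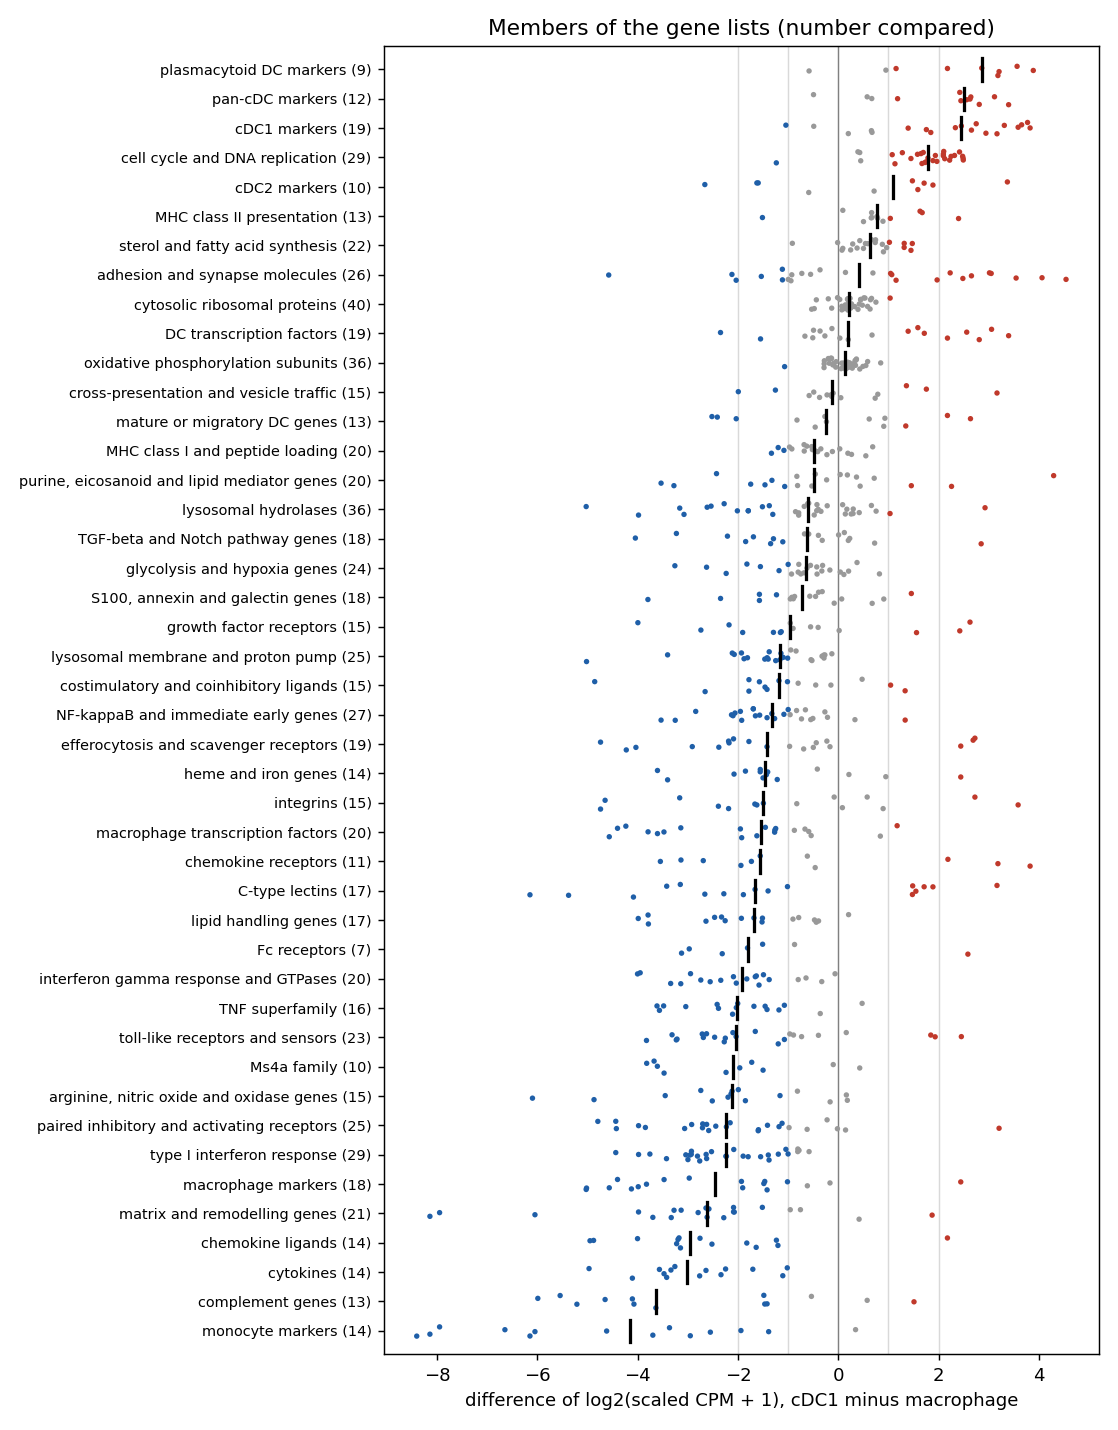
Members of the gene lists with at least 7 compared genes, as difference of log2(scaled CPM + 1), cDC1 minus macrophage, with members 2-fold or more higher in cDC1 in red, those 2-fold or more lower in blue, others grey, and the list median as a black bar. Dendritic cell markers and cell cycle genes lie to the right, and monocyte markers, complement genes, cytokines and chemokines lie furthest to the left.

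Genes of MHC class II presentation were mostly higher in cDC1 by less than 2-fold, and H2-DMb2, the DO chains and Ifi30 by more. Ifi30 was just past that line, at 677 in cDC1 and 329 in macrophages. Of 13 genes, 4 were higher at 2-fold or more and 1 lower (median 0.77), and with equal totals 10 were higher. The invariant chain Cd74 stood at 6832 in cDC1 and 4334 in macrophages (1.58-fold) and the class II chain H2-Ab1 at 3659.9 in cDC1 and 2146 in macrophages. The DM chain H2-DMb2, which helps load peptide, was at 222 in cDC1 and 41.3 in macrophages (5.37-fold, interval 5.13 to 5.62). H2-Ob and H2-Oa, the DO chains that restrain DM, were at 43.2 in cDC1 and 12.9 in macrophages and at 19.7 in cDC1 and 5.68 in macrophages. Cathepsin S (Ctss), the protease that trims the invariant chain, was the 1 lower gene, at 884 in cDC1 and 2527 in macrophages.

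MHC class I genes lay mostly within 2-fold. Of 20 compared, none was higher and 3 were lower in cDC1 at 2-fold (median -0.49; -0.12 with equal totals). The 3 were the transactivator Nlrc5, at 131 in cDC1 and 331 in macrophages, H2-T22 and H2-Q4. The class I light chain B2m was just inside that bound, at 1089 in cDC1 and 2139 in macrophages, and the peptide transporter Tap1 was at 458 in cDC1 and 633 in macrophages. The 15 compared genes of cross-presentation and vesicle traffic had a median of -0.13, whose sign turned with equal totals (0.23). Wdfy4, required for cross-presentation by mouse cDC1, stood at 1728 in cDC1 and 511 in macrophages. The small GTPase Rab27a was at 103 in cDC1 and 39.7 in macrophages, and the oxidase chain Cybb, which slows acidification of phagosomes in dendritic cells, at 513 in cDC1 and 2049 in macrophages.

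**Figure D5:**
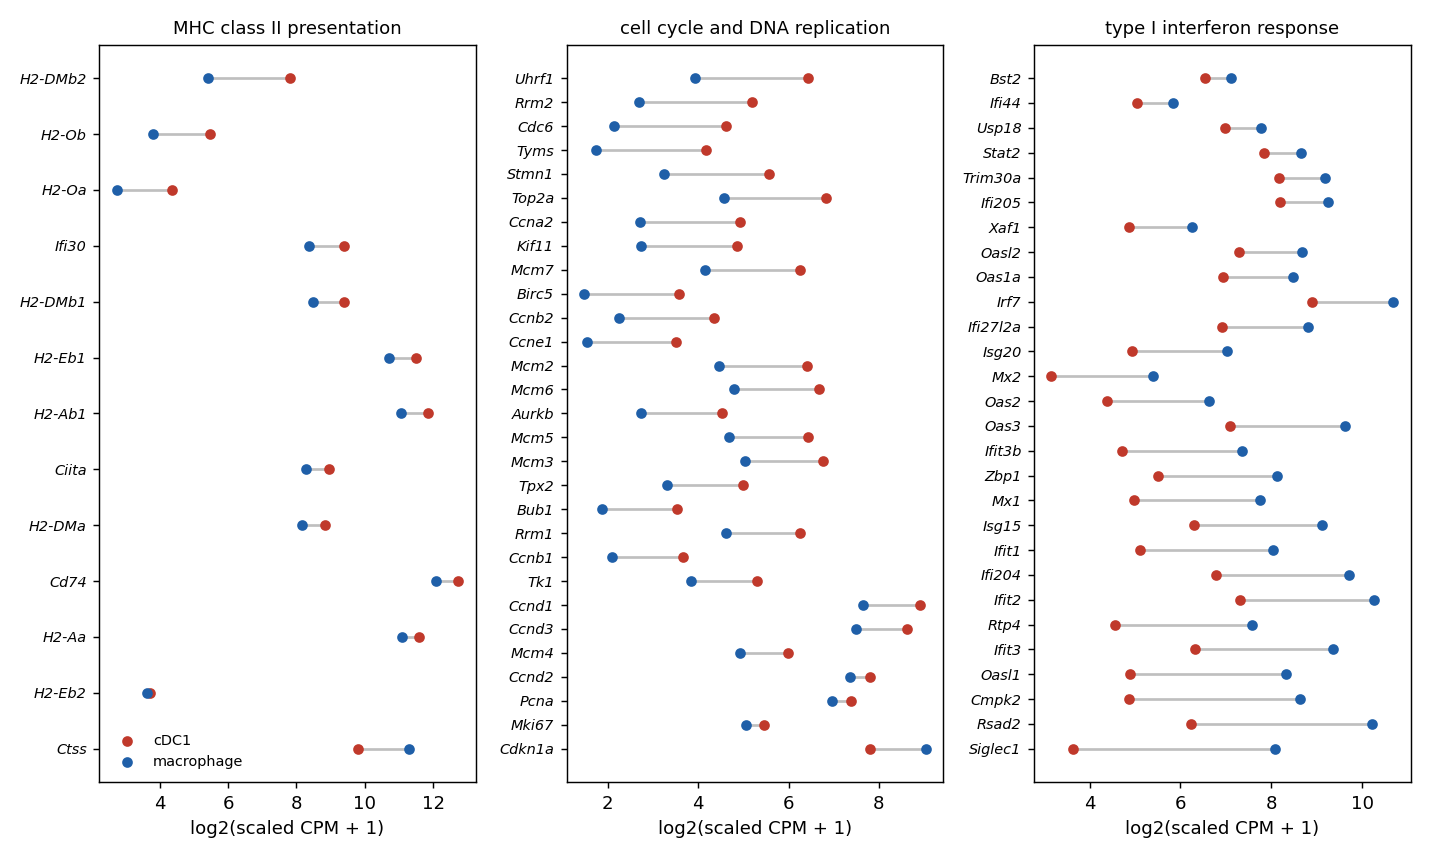
Levels of members of 3 gene lists as log2(scaled CPM + 1) in cDC1 (red) and macrophages (blue), each gene on its own row in order of the difference. MHC class II genes lie slightly higher in cDC1 except Ctss, cell cycle genes higher except Cdkn1a, and the type I interferon genes shown lower in cDC1.

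Costimulatory and coinhibitory ligands were mostly lower in cDC1, at 9 of 15 against 2 higher (median -1.18). Cd274, which encodes the checkpoint ligand PD-L1, stood at 65.7 in cDC1 and 419.8 in macrophages (6.38-fold lower, interval 6.15 to 6.63), while Pdcd1lg2 (PD-L2) was at 29.3 in cDC1 and 32.5 in macrophages. The costimulators Cd86 and Cd40 were at 103 in cDC1 and 141 in macrophages and at 59.2 in cDC1 and 136 in macrophages. Cd276 (B7-H3) was very low in cDC1, at 0.245 in cDC1 and 35.1 in macrophages. On the higher side, the ligand of ICOS, Icosl, was at 84.3 in cDC1 and 32.9 in macrophages. Genes of mature or migratory dendritic cells were divided, with 3 of 13 higher and 3 lower and a median of -0.24 that turned positive (0.13) with equal totals. Il4i1, an amino acid oxidase that overlaps Nup62, was at 264 in cDC1 and 41.7 in macrophages, and the chemokine Ccl17 at 16.3 in cDC1 and 2.82 in macrophages. The receptor Ccr7, which guides dendritic cells to lymph nodes, was low in both at 10.2 in cDC1 and 14.4 in macrophages.

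Transcription factors of dendritic cells differed gene by gene. Of 19, 8 were higher and 2 lower in cDC1 at 2-fold (median 0.20). Bcl11a, needed for plasmacytoid cells and lymphoid progenitors, was at 354 in cDC1 and 32.8 in macrophages (10.8-fold), and the Myc family member Mycl at 67.9 in cDC1 and 7.29 in macrophages (9.32-fold). Zbtb46, a marker factor of conventional dendritic cells, was at 152 in cDC1 and 20.9 in macrophages, and Spib at 48.6 in cDC1 and 7.4 in macrophages. The repressor Nfil3, which acts early in cDC1 development, was on the lower side at 73.2 in cDC1 and 377 in macrophages, as was Zeb2, of monocytes and cDC2, at 281 in cDC1 and 826 in macrophages.

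Macrophage transcription factors were largely lower in cDC1, at 14 of 20 against 1 higher (median -1.54). Maf stood at 8.79 in cDC1 and 231 in macrophages (26.3-fold lower, interval 23.9 to 29). Cebpb, of inflammatory monocytes, was at 44.5 in cDC1 and 857 in macrophages (19.3-fold), and the oxysterol receptor Nr1h3 (LXR alpha) at 6.65 in cDC1 and 105 in macrophages. The pioneer factor Spi1 (PU.1), shared by both lineages, was within 2-fold at 302 in cDC1 and 439.7 in macrophages. The retinoid receptor Rxra was the 1 higher gene, at 106 in cDC1 and 46.6 in macrophages.

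Growth factor receptors showed both directions, with 5 of 15 within 2-fold. Kit, at 67.8 in cDC1 and 10.2 in macrophages, Flt3 as above and the beta chain Csf2rb2, at 488 in cDC1 and 165 in macrophages, were higher in cDC1. Of the 15, 7 were lower, and 4 with equal totals. The shared receptor chain Csf2rb was within 2-fold at 425 in cDC1 and 563 in macrophages. Among the lower genes, the efferocytosis kinase Axl was at 156 in cDC1 and 710.1 in macrophages (4.55-fold) and the VEGF receptor Flt1 at 23.7 in cDC1 and 164 in macrophages.

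Proliferation genes were higher in cDC1 in most of the list. Of 29 compared, 25 were 2-fold or more higher and 1 lower (median 1.79), and 6 further list genes did not reach the minimum. Some of the 25, such as Rrm2 and Ccna2, passed the minimum through the cDC1 library alone, so the filter could admit them only on that side. Rrm2, the small subunit of ribonucleotide reductase, was at 35.5 in cDC1 and 5.5 in macrophages (6.45-fold, interval 5.7 to 7.31). The replication licensing gene Mcm7 was at 75.2 in cDC1 and 16.7 in macrophages, topoisomerase Top2a at 113 in cDC1 and 22.9 in macrophages (4.91-fold) and the S phase cyclin Ccna2 at 29.6 in cDC1 and 5.57 in macrophages. Mki67, by contrast, was within 2-fold at 42.7 in cDC1 and 32.3 in macrophages. The cyclin kinase inhibitor Cdkn1a (p21) was the lower gene, at 222 in cDC1 and 525 in macrophages. Replication-dependent histone genes, looked at after their values were seen, ran the same way, with 34 of 56 higher at 2-fold, none lower and a median of 1.33. Histone genes are near-identical copies whose reads can be split between them.

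Sterol and fatty acid synthesis stood above the median of all genes by a smaller step. Of 22 genes 5 were 2-fold or more higher in cDC1 and none lower (median 0.63), and 11 were higher with equal totals. Fatty acid synthase (Fasn) was at 242 in cDC1 and 86.3 in macrophages (2.8-fold), the farnesyl diphosphate synthase Fdps at 185 in cDC1 and 67 in macrophages and the desaturase Scd2 at 267 in cDC1 and 107 in macrophages. The desaturase genes of polyunsaturated fatty acids, neighbours on chromosome 19 between 10041569 and 10196877, all passed 4-fold, a choice made after seeing their values. Fads2 stood at 88.6 in cDC1 and 6.76 in macrophages.

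Genes for reading out microbes and cell death followed a narrow pattern. Of 23 Toll-like receptors and sensors, 15 were lower and 3 higher in cDC1 (median -2.04). The higher genes were Tlr3, for double-stranded RNA, at 108 in cDC1 and 29.4 in macrophages, and 2 profilin receptors. These were Tlr11, at 47.5 in cDC1 and 7.86 in macrophages, and Tlr12, at 22.3 in cDC1 and 5.11 in macrophages. All 3 are receptors of endosomes, but so are Tlr7, Tlr8, Tlr9 and Tlr13, none of which was higher. Tlr8 was at 8.32 in cDC1 and 85.6 in macrophages, and Tlr13 at 44.3 in cDC1 and 279 in macrophages. Tlr9, for unmethylated DNA, was within 2-fold at 237 in cDC1 and 441 in macrophages. Tlr7, for single-stranded RNA, was at 18.9 in cDC1 and 197 in macrophages (10.4-fold lower), the lipopeptide receptor Tlr2 at 45.4 in cDC1 and 435 in macrophages and the endotoxin co-receptor Cd14 at 41 in cDC1 and 594 in macrophages. The cytosolic RNA sensors Ifih1 (MDA5), at 118 in cDC1 and 511 in macrophages, and Ddx58 (RIG-I), at 71.3 in cDC1 and 344 in macrophages, were also lower, while Tmem173 (STING) was level at 109 in cDC1 and 97.6 in macrophages.

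Interferon-inducible genes were lower in cDC1 across both lists. For type I interferon, 25 of 29 were 2-fold or more lower and none higher (median -2.24; -1.88 with equal totals, when 22 were lower). Rsad2 (viperin), which makes an antiviral nucleotide, stood at 73.9 in cDC1 and 1184 in macrophages (16-fold lower, interval 15.5 to 16.6). Isg15, a ubiquitin-like modifier, was at 77.8 in cDC1 and 551 in macrophages (7.08-fold), and the RNA-binding Ifit1 at 33.7 in cDC1 and 263 in macrophages (7.81-fold). The factor Irf7, which amplifies interferon production, was at 473 in cDC1 and 1648 in macrophages (3.48-fold). The sialic acid receptor Siglec1, an inducible macrophage gene, showed the widest gap of the list, at 11.4 in cDC1 and 268 in macrophages. For interferon gamma and the immunity GTPases, 16 of 20 were lower and none higher (median -1.93). The guanylate-binding Gbp2 was at 104 in cDC1 and 808 in macrophages and the chemokine Cxcl10 at 36.8 in cDC1 and 605 in macrophages (16.5-fold). The GTPases Iigp1, at 124 in cDC1 and 195 in macrophages, and Tgtp1, at 36.2 in cDC1 and 38 in macrophages, were within 2-fold.

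Promoters of these genes were read from RefSeq (GRCm38.p6), each from 250 bases before to 50 after the annotated start, 300 bases in all. The interferon-stimulated response element core, GAAA then any 2 bases then GAAA, searched on both strands, is the sequence that IRF factors recognise. The 4 promoters of genes lower in cDC1 shown here hold it, with the matches in capitals (TTTC, 2 bases and TTTC is the same core on the other strand). Isg15 is chr4:156200769-156201068, minus strand, Ifit1 chr19:34640639-34640938, plus strand, Rsad2 chr12:26456403-26456702, minus strand, and Cxcl10 chr5:92348840-92349139, minus strand.
Isg15: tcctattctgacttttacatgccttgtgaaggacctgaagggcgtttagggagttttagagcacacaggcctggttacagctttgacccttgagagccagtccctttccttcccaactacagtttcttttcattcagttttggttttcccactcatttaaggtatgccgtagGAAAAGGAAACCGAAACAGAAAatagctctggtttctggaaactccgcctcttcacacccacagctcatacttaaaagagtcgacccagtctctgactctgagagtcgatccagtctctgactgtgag
Ifit1: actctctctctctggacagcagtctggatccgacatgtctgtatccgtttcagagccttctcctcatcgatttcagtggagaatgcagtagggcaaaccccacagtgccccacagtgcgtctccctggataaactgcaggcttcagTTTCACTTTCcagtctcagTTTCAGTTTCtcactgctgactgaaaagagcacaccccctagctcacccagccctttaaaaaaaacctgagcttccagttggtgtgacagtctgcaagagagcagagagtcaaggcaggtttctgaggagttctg
Rsad2: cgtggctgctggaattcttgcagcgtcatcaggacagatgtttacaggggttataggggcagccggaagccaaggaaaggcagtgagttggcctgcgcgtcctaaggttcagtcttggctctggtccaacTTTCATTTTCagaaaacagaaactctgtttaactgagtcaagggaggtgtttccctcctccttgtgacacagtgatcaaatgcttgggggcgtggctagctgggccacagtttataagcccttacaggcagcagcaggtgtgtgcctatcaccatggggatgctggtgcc
Cxcl10: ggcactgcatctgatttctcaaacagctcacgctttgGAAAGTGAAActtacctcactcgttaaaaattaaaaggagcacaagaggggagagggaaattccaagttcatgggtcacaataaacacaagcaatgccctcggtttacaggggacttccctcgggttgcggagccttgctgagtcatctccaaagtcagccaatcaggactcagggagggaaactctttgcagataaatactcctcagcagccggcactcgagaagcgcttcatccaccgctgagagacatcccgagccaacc
The Isg15 promoter holds 3 overlapping matches in a single run, Ifit1 holds 2, and Rsad2 and Cxcl10 hold 1 each. For contrast, 2 promoters of genes high in cDC1 are shown, searched for the same core and for GGAA then any 2 bases then GAAA, the composite element of PU.1 with IRF4 or IRF8, which ends in the same letters as the first core. Cd209e is chr8:3854237-3854536, minus strand, and has 1 match to the composite element on its other strand (TTTC, 2 bases and TTCC). Xcr1 is chr9:123861980-123862279, minus strand, and has none of either. The promoters printed here are chosen examples and do not stand for the genes with the largest differences. Among those genes, 14 on the cDC1 side and 16 on the macrophage side had a promoter entry. On the cDC1 side, Chl1 and 1 entry of Hrh1 held the response element core. On the macrophage side, Clec4d alone did.
Cd209e: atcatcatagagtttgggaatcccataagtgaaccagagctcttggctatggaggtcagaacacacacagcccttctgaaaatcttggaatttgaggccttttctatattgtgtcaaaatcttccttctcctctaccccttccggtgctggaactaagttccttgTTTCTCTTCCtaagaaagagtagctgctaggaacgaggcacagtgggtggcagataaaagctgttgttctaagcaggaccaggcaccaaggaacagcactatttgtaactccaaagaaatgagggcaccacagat
Xcr1: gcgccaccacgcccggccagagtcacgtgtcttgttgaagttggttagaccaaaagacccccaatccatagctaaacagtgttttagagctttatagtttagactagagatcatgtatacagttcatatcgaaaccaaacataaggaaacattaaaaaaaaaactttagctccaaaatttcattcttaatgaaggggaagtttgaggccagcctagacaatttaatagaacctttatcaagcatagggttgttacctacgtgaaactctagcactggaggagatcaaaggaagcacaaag

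Shares were counted over genes with a promoter entry, and a gene with several entries counted if any of them matched. The response element core was present in 14.5% of 345 such genes 4-fold or more lower in cDC1. It was present in 4.32% of 162 genes 4-fold or more higher, and in 4.47% of the 6596 compared genes with an entry. Among the 4-fold lower genes, 10 of 14 on the interferon lists held it (71.4%), and 40 of 331 on neither list (12.1%). Those 40 included further members of interferon-inducible families, such as Ifit1bl1, Ifi206, Ifi213 and Oas1g. The 12.1% is therefore not the share among genes unrelated to interferon. The composite PU.1 and IRF element was in 4.32% of the higher, 3.77% of the lower and 3.27% of all genes with an entry. The AP-1 element TGANTCA was in 8.64% of the higher, 12.8% of the lower and 6.31% of all. The C/EBP element TTGCNNAA was in 12.3% of the higher, 16.5% of the lower and 10.2% of all, and the PU.1 element GAGGAAGT in 9.26%, 6.67% and 4.58% of the same sets. The NF-kappaB element, GGGA then any 4 bases then CC, was in 29.0% of the higher, 26.7% of the lower and 30.2% of all. The lysosomal element TCACGTGA was in 1.23% of the higher, 1.45% of the lower and 2.64% of all, and the MAF element, TGC followed by the AP-1 element, in 0.617%, 0.870% and 0.364%. The promoters of the sets differed in base composition. The median GC content, averaged over the entries of a gene, was 58.7% in the higher, 54.8% in the lower and 61.3% in all genes. A match is a description of letters and not of binding.

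Secreted signals were among the widest gaps. All 14 compared cytokines and growth factors were 2-fold or more lower in cDC1 (median -3.01), and 12 were with equal totals. Several of them, such as Tnf and Il15, passed the minimum through the macrophage library alone. A further 7 list genes in the table did not reach the minimum in either library. The inflammatory cytokine Il1b stood at 232 in cDC1 and 2495 in macrophages (10.8-fold lower, interval 10.6 to 11), and its receptor antagonist Il1rn at 17.9 in cDC1 and 592 in macrophages (33.1-fold). Il15 was at 1.22 in cDC1 and 23.7 in macrophages (19.4-fold), with its presenting chain Il15ra at 5.24 in cDC1 and 24.6 in macrophages. The angiogenic factor Vegfa was at 11.6 in cDC1 and 119 in macrophages, oncostatin M (Osm) at 16.7 in cDC1 and 305 in macrophages and Tnf at 5.61 in cDC1 and 77.3 in macrophages. Chemokine ligands were lower in 13 of 14 (median -2.95), with Ccl17 the exception. The monocyte attractants Ccl2, at 1.18 in cDC1 and 66.5 in macrophages, and Ccl7, listed at 0 in cDC1 and at 28.5 in macrophages, had some of the lowest cDC1 levels of the list. The T cell attractant Cxcl9 was at 77.2 in cDC1 and 276 in macrophages (3.58-fold), and Cxcl16 at 87.6 in cDC1 and 207 in macrophages.

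Chemokine receptors showed both directions, 3 higher and 6 lower of 11. Besides Xcr1 and Ccr9, Cxcr3, the receptor for Cxcl9 and Cxcl10, was higher in cDC1, at 11 in cDC1 and 1.65 in macrophages. The stromal factor receptor Cxcr4 was at 104 in cDC1 and 679 in macrophages (6.52-fold lower), and the atypical receptor Ccrl2 at 33.2 in cDC1 and 399.8 in macrophages. Of 16 TNF superfamily genes 14 were lower and none higher (median -2.02). The receptor Tnfrsf1b was at 81.6 in cDC1 and 923 in macrophages, the death receptor Fas at 1.53 in cDC1 and 19.8 in macrophages, and the ligand Tnfsf9 (4-1BBL) was within 2-fold at 32.6 in cDC1 and 23.2 in macrophages.

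NF-kappaB and immediate early genes were lower in 17 of 27 and higher in 1 (median -1.33). Among the subunits, Nfkb1 stood at 509 in cDC1 and 405 in macrophages, Rela at 67.1 in cDC1 and 112 in macrophages and Rel at 155 in cDC1 and 505 in macrophages. Among the feedback genes, the inhibitor Nfkbia was at 97.5 in cDC1 and 430.3 in macrophages (4.41-fold lower) and Tnfaip3 (A20) at 195 in cDC1 and 818 in macrophages. The prostaglandin synthase Ptgs2 had the widest gap, at 49.7 in cDC1 and 587 in macrophages (11.8-fold). The early gene Fos was at 821 in cDC1 and 2059.6 in macrophages and the phosphatase Dusp1 at 449.9 in cDC1 and 1932 in macrophages.

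The list of C-type lectins had no compared member within 2-fold as deposited, with 6 higher and 11 lower of 17. With equal totals 10 were lower, and Mrc1 lay near the line at a difference of -1.01. The list does not hold every lectin compared. Clec2i is not on it, nor is Cd209e, named above among the genes furthest on the cDC1 side. The higher genes of the list were Clec9a, Cd209a, Clec10a, Mgl2, the uptake receptor Ly75 (DEC-205), at 43.4 in cDC1 and 14.2 in macrophages, and Klrb1b. The lower genes included the Mincle gene Clec4e, at 4 in cDC1 and 353 in macrophages (88.5-fold), its neighbour Clec4d, at 0.734 in cDC1 and 71.1 in macrophages, and Dectin-1 (Clec7a), at 222 in cDC1 and 1084 in macrophages. Fc receptors were lower in 5 of 7. Fcgr4 stood at 10.9 in cDC1 and 103 in macrophages and Fcgr1 at 76.5 in cDC1 and 608 in macrophages (7.94-fold lower), while the neonatal receptor Fcgrt, which recycles antibody, was higher at 310.1 in cDC1 and 50.9 in macrophages (6.09-fold, interval 5.85 to 6.35).

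Paired inhibitory and activating receptors were lower in cDC1 in 19 of 25 (median -2.23), and Siglech alone was higher. Cd300e was at 3.04 in cDC1 and 62.9 in macrophages, Trem1 at 3.22 in cDC1 and 59.8 in macrophages, and the inhibitory Lilrb4a at 97.2 in cDC1 and 605 in macrophages. The inhibitory Pirb, at 309 in cDC1 and 476 in macrophages, and Cd300a, at 308 in cDC1 and 360.2 in macrophages, were within 2-fold. Sirpb1a, Sirpb1b and Sirpb1c are near copies, as are Lilr4b and Lilrb4a, and their reads may be shared. Of 10 Ms4a family genes 8 were lower and none higher (median -2.10), with Ms4a7 at 5.85 in cDC1 and 75.2 in macrophages and Ms4a6d at 40.1 in cDC1 and 579 in macrophages.

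Uptake receptors showed an exception within a lower group. Of 19 efferocytosis and scavenger receptors 10 were lower and 3 higher (median -1.42). The scavenger receptor Msr1 was at 24.7 in cDC1 and 481 in macrophages (19.5-fold lower), the large uptake receptor Lrp1 at 412 in cDC1 and 2152 in macrophages and the integrin chain Itgb5 at 2.43 in cDC1 and 90.9 in macrophages. The phosphatidylserine receptor Timd4 (TIM-4) was higher in cDC1, at 18 in cDC1 and 1.94 in macrophages (9.25-fold), as was the integrin chain Itgb3, at 82.8 in cDC1 and 11.7 in macrophages (7.09-fold). Cd36 was within 2-fold, at 65.6 in cDC1 and 89.3 in macrophages.

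Complement genes had the lowest median of the function lists, at -3.64 over 13 genes, 10 of them lower and 1 higher. C3 stood at 27.4 in cDC1 and 1328 in macrophages (48.4-fold lower, interval 45.9 to 51.2) and factor B (Cfb), its partner in the alternative pathway, at 17.3 in cDC1 and 679 in macrophages (39.2-fold). The anaphylatoxin receptor C5ar1 was at 1.65 in cDC1 and 168 in macrophages (102-fold). Properdin (Cfp), which stabilises the alternative convertase, was the 1 higher gene, at 600.5 in cDC1 and 210.3 in macrophages. The C1q chain C1qa was at 36.7 in cDC1 and 105 in macrophages, with 572 in cDC2 and 228 in CD103int DC, so that the macrophage library did not have the highest C1q level of the 4.

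Lysosomal genes were lower in cDC1 or within 2-fold, with few exceptions. Of 25 membrane and pump genes 16 were 2-fold or more lower, 4 of them past 4-fold, and none higher (median -1.17), and with equal totals 11 were lower. In this list Lamp1 was at 146 in cDC1 and 514 in macrophages and the iron exporter of phagosomes Slc11a1 at 23.9 in cDC1 and 263 in macrophages. Gpnmb, a glycoprotein of lysosomes and melanosomes, was at 4.89 in cDC1 and 190.3 in macrophages (38.9-fold). Of 36 hydrolases 13 were lower, 8 of them past 4-fold, and 2 higher (median -0.60), and with equal totals 12 were lower and 4 higher. Cathepsin B (Ctsb) was at 442 in cDC1 and 2569.8 in macrophages and legumain (Lgmn) at 104 in cDC1 and 886 in macrophages (8.51-fold lower). Arylsulfatase B (Arsb), which cuts glycosaminoglycans, was higher in cDC1, at 200.4 in cDC1 and 25.5 in macrophages (7.86-fold, interval 7.43 to 8.32), and Naaa, an acid amidase known in cDC1, was at 682 in cDC1 and 431 in macrophages.

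Lipid handling genes were lower in 11 of 17 and higher in none (median -1.68). Apolipoprotein E (Apoe) stood at 14.4 in cDC1 and 243 in macrophages (16.9-fold), the lipid droplet protein Plin2 at 107 in cDC1 and 596 in macrophages and the lipase Lpl at 49.3 in cDC1 and 239 in macrophages. The tetraspanin Cd9 was level, at 74.9 in cDC1 and 64.9 in macrophages. Heme and iron genes were lower in 10 of 14 (median -1.47). Heme oxygenase (Hmox1) was at 38.1 in cDC1 and 164 in macrophages, the heavy ferritin chain Fth1 at 987 in cDC1 and 2298 in macrophages, and the transferrin receptor Tfrc at 64.1 in cDC1 and 32.8 in macrophages, with the opposite sign to the ferritin gene.

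Genes of arginine, nitric oxide and the phagocyte oxidase were lower in 11 of 15 and higher in none (median -2.12). Arginase 1 (Arg1) was at 0.673 in cDC1 and 48 in macrophages (71.3-fold lower) and the inducible nitric oxide synthase Nos2 at 2.08 in cDC1 and 19.6 in macrophages. The oxidase chain Ncf4 was at 29 in cDC1 and 129 in macrophages, and Ncf1 nearly level at 144 in cDC1 and 161 in macrophages. Glycolysis and hypoxia genes were within 2-fold in 17 of 24, with 7 lower, where 75.0% of all compared genes were within 2-fold and 15.8% lower. The core enzymes Gapdh, at 1208 in cDC1 and 1049 in macrophages, and Ldha, at 634 in cDC1 and 587 in macrophages, were level, whereas hexokinase 3 (Hk3), at 44.9 in cDC1 and 283 in macrophages, and the lactate exporter Slc16a3, at 64.7 in cDC1 and 309 in macrophages, were lower.

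Matrix and remodelling genes were lower in 17 of 21 (median -2.62). Fibronectin (Fn1) was at 109 in cDC1 and 1422 in macrophages, the urokinase receptor Plaur at 54.6 in cDC1 and 385 in macrophages and the metalloproteinase Mmp14 at 76.1 in cDC1 and 327 in macrophages. The protease inhibitor Timp1 was the exception, at 20.4 in cDC1 and 4.86 in macrophages, and the macrophage elastase Mmp12 was within 2-fold at 225 in cDC1 and 168 in macrophages. Integrins were lower in 8 of 15 and higher in 2, Itgae and Itgb3. The chain Itgal was at 136 in cDC1 and 720.1 in macrophages and Itgb7, the partner of CD103, was level at 234 in cDC1 and 221 in macrophages.

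Adhesion and synapse molecules held the most higher genes of any function list after the cell cycle, 12 of 26 against 6 lower (median 0.42). The median was -0.55 with a minimum of 50 scaled CPM. With Chl1, Ptprf and Cdh1, the cDC1 side held the postsynaptic adhesion protein Nlgn2, at 40.5 in cDC1 and 4.01 in macrophages, the cDC1 adhesion molecule Cadm1, at 87.6 in cDC1 and 13.1 in macrophages, and Sema6d, at 28.2 in cDC1 and 2.62 in macrophages. On the other side, Cd93 stood at 18.1 in cDC1 and 456 in macrophages (25.2-fold lower) and Sema4d at 244 in cDC1 and 1006 in macrophages. Among 20 genes of purines, eicosanoids and lipid mediators, 3 were higher and 7 lower. The lysophosphatidylserine receptor P2ry10 was at 227 in cDC1 and 46.7 in macrophages, and the platelet-activating factor receptor Ptafr at 91.9 in cDC1 and 899.9 in macrophages (9.8-fold lower).

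Of 18 TGF-beta and Notch pathway genes 8 were lower and 1 higher. Notch4 was at 26.3 in cDC1 and 2.79 in macrophages (9.43-fold), while its relative Notch1 was at 31.2 in cDC1 and 115 in macrophages and the activin chain Inhba at 5.26 in cDC1 and 102 in macrophages. Of 18 S100, annexin and galectin genes 12 were within 2-fold, 5 lower and 1 higher, where 75.0% of all compared genes were within 2-fold. Galectin 1 (Lgals1) was the higher gene, at 594 in cDC1 and 216 in macrophages. Annexin 3 (Anxa3) was among the lower, at 0.224 in cDC1 and 16 in macrophages.

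Housekeeping groups differed little. Of 40 cytosolic ribosomal protein genes 39 were within 2-fold (median 0.22), as were 35 of 36 oxidative phosphorylation subunits (median 0.13). With equal totals these medians were 0.59 and 0.49, so that their position above 0 grew by about the common shift.

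Several called genes lay side by side on a chromosome. Runs of at least 3 called genes of the same direction, with gaps of at most 100000 bases, numbered 2 on the higher side, the histone genes Hist1h3c, Hist1h2ab and Hist1h3b and the Fads genes. On the lower side, 5 of 5 compared Ifit genes lay at chromosome 19, 34550694 to 34650009, and 7 of 8 genes of the Cd300 region at chromosome 11, 114922781 to 115247023. The chemokine genes Ccl2, Ccl7 and Ccl12 lay at chromosome 11, 82035571 to 82103400, and Ccl9, Ccl3 and Ccl4 within a run of 5 of 6 genes at 83525778 to 83706268. The Schlafen genes formed a further run of 5 of 6 genes at chromosome 11, 82978390 to 83190216. Coordinates are of GRCm38 from GENCODE M21. Members of such families are similar in sequence, and reads could be shared between them.

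The thresholds cut through a continuous range. Golga1, Atg14 and Tmem175 were the genes just above the minimum of 10 in the higher library, and Brms1l, Chaf1b and Dbr1 those just below. Cdc45, at a difference of 2.01, was the gene nearest inside the 4-fold line on the higher side, and Ppp1r3d, at 1.99, lay just outside. On the lower side the death ligand Tnfsf10, at -2.01, lay just inside and Cybb, at -1.99, just outside.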

How the data were processed

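RNA of 4 sorted populations was sequenced, per the labels from total RNA with a directional library kit after DNase treatment. The authors deposited 1 table of an expression signal for 13976 genes, by its name CPM scaled by TMM (a trimmed mean of log ratios between libraries) after a filter on genes. The aligner, counting program, filter rule and build were not given in the sources used here. Identifiers matched GENCODE M21 (GRCm38) for all 13976 genes.

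Columns were matched to populations by the sample titles. Values rose in steps of a fixed size and its hundredths, and 79.0% of the cDC1 and 70.9% of the macrophage values were whole steps (tolerance 0.001 step). A step was read as 1 read of an estimated count, so no count test was run. The 95% Poisson (levels) and exact binomial (folds) intervals cover counting error only, and amplified reads are not independent molecules.

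Genes with at least 10 in the higher library were compared by the difference of log2(value + 1), which understates changes of low genes. The members and the 52 gene lists were chosen with earlier results of these data known. Of 939 list genes, 849 were in the table and 737 were compared, and the others were not analysed here. Genes share lists (112 stand in more than 1). Genes named are the 20 largest and 20 smallest differences among protein-coding genes, the 5 members at each end of every list, lineage markers, sort markers, the 10 most abundant genes of each library and genes next to a threshold. Fads and histone genes were added after their values were seen. Not every gene that the rule names is reported here. Alternatives were other scalings, pseudocounts and minimums. The comparison was tested on simulated data. Python 3.11.15, numpy 2.4.6, pandas 2.3.3, scipy 1.17.1 and matplotlib 3.10.9 were used.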

Additional observations from a re-analysis of the deposited data

How the results depend on the processing

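No paired analysis was possible because each population had 1 library, and for the same reason no library could be left out and no value can be set against replicate error. The counts moved with the scaling, the minimum and the pseudocount. With equal totals, 341 genes were 4-fold higher in cDC1, 1471 were 2-fold higher and 885 were 2-fold lower. With equal protein-coding totals, 348 were 4-fold and 1491 were 2-fold higher. A pseudocount of 5 left 104 genes 4-fold higher. A minimum of 1 and no minimum each gave 1473 genes 2-fold higher. A minimum of 50 gave 89 and 312 genes 4-fold higher and lower in cDC1, and 273 and 879 at 2-fold. The other counts stayed within 1.5 times of those reported, including those from a median-ratio scaling (253 higher and 420 lower at 4-fold), a pseudocount of 0.1, protein-coding genes without ribosomal protein and mitochondrial genes, and, an alternative chosen after seeing the data, without genes listed at 0. Of the 49 list medians, 2 changed sign with equal totals, 2 with equal protein-coding totals, none with the median ratio or either pseudocount, 1 with a minimum of 1, 1 with no minimum and 3 with a minimum of 50 (endothelial markers, adhesion and synapse molecules, and purine and eicosanoid genes). Of the 32 list medians past 2-fold, between 28 and 32 stayed past it on the same side under each of these alternatives. Of the 768 named genes, 59 changed sign with equal totals and 13 with the median ratio. Of the 457 past 2-fold, 410 stayed with equal totals and 442 with the median ratio. Reads limit only the lowest values, such as Hp with 3 estimated reads in cDC1.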
